A study of Mus musculus with 12 samples.

Results

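The nuclear-encoded subunits of the oxidative phosphorylation machinery were followed in fibroblasts of unwounded and wounded mouse skin. They were taken by gene symbol, as names that begin with Ndufa, Ndufb, Ndufc, Ndufs or Ndufv and a digit (complex I, leaving out Ndufa4l2), Sdha to Sdhd (complex II), Uqcr (complex III), Cox4 to Cox8 (complex IV) and Atp5 (complex V). This rule found 87 of the 25239 genes in the table, of which 39 belonged to complex I by name, 4 to complex II, 8 to complex III, 19 to complex IV and 17 to complex V. After a filter on low counts 80 of the 87 members were tested among 14901 genes, namely 36, 4, 8, 15 and 17 of complexes I to V. Of the 7 members that were not tested, Cox7b2 and Cox8c had 0 counts in every library, and Cox6a2, Cox7c-ps1, Ndufa11b, Ndufb4c and Ndufs5 had too few. Of the exon length of Ndufs5, 95.1% overlaps the pseudogene Ndufs5-ps, and fragments shared by overlapping genes were not counted. Ndufa4 carries a complex I name but is known as a subunit of complex IV. The subunits encoded by the mitochondrial genome were not analysed here, since the table holds 0 mitochondrial genes.

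Each library held bulk RNA of live cells sorted from back skin as SCA1+, CD45- and CD31-. The mice were wild type C57BL/6 males of 8 weeks. There were 4 groups of 3 libraries, each library from its own mouse: unwounded skin (NW), and skin taken 16 h, 1.5 d and 3 d after a full-thickness punch wound of 4 mm. Library totals were between 26389453 and 43493475 counted fragments, and the members together took 0.448% to 1.00% of a library's counts. The share of a library taken by 10 fibroblast markers averaged 14.5 ± 4.73% for NW, with 6.66 ± 3.16% for 16 h, 9.54 ± 1.46% for 1.5 d and 16.9 ± 4.20% for 3 d (SD over 3 libraries). For 18 keratinocyte markers, which the sort did not gate on, the share averaged 3.13 ± 1.06% for NW, with 1.12 ± 0.291% for 16 h, 0.604 ± 0.171% for 1.5 d and 0.783 ± 0.673% for 3 d. In bulk samples fewer cells of a type and less RNA per cell cannot be told apart.

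Oxidative phosphorylation takes place at the inner mitochondrial membrane. Complex I oxidises NADH and complex II oxidises succinate, both pass electrons to ubiquinone, complex III hands them to cytochrome c, and complex IV reduces oxygen. The proton gradient built by complexes I, III and IV drives complex V, the ATP synthase. Skin fibroblasts draw on both glycolysis and respiration, and the nuclear genes of the complexes are known targets of the transcription factors NRF1 and GABPA (also named NRF2), the oestrogen-related receptors (ERR) and YY1.

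The upstream sequences of Sdha, Ndufv1 and Ndufa1 are shown because these genes carry the firmest higher calls and the largest lower call of a well-expressed member. Each runs 5′ to 3′ over the 250 bases before the RefSeq start, in GRCm38.p6, and capitals mark the letters GCGCANGC of the NRF1 core on either strand. The Sdha window is chr13:74350241-74350490, that of Ndufv1 chr19:4012756-4013005 and that of Ndufa1 chrX:37191239-37191488, all 3 on the minus strand.
Sdha: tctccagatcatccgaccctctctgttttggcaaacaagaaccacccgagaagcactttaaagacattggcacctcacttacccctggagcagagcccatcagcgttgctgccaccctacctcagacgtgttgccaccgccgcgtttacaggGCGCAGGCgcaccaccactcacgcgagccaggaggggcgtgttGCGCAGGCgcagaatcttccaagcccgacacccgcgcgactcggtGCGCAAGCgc
Ndufv1: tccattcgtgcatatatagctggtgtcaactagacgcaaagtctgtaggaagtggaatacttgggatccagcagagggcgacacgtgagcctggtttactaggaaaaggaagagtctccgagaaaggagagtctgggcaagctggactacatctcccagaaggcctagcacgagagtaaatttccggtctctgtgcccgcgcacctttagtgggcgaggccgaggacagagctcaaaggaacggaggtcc
Ndufa1: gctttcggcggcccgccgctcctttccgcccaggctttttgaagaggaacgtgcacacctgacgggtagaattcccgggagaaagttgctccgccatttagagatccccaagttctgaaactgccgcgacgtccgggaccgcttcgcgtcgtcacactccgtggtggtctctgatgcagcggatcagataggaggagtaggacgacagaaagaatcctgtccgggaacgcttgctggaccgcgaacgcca
Sdha held 3 matches to the NRF1 core, at -98 to -91, -55 to -48 and -10 to -3 from the start, whereas Ndufv1 and Ndufa1 held 0 matches to any of the 4 motifs searched. RefSeq windows were at hand for 66 of the 80 tested members. The NRF1 core stood in 17 of these 66 (25.8%), against 9.38% of the windows of 27025 genes. The GABPA core CCGGAAG stood in 12 (18.2%), against 7.83%, the ERR core AAGGTCA in 4 (6.06%), against 4.70%, and the YY1 core AAGATGGC in 1 (1.52%), against 1.83%. The 27025 genes were not filtered on counts as the 66 members were, so the shares are not like for like. These are letter matches on both strands, with no binding measured.

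In each group a single library was the highest for most members, across all 5 complexes. NW replicate 2 was the highest of its group for 75 of 80 members (93.8%), against 35.8% of all genes tested. Replicate 3 at 16 h was the highest for 69 (86.2%, against 37% of all genes), replicate 1 at 1.5 d for 63 (78.8%, against 40.4%) and replicate 3 at 3 d for 76 (95%, against 35.4%). The median of each of the 5 complexes was also highest in these same libraries of their groups. The median log2 deviation of the members from their mean over 12 libraries was -0.11, 0.79 and -0.22 in the NW libraries, -0.14, -0.29 and 0.18 at 16 h, 0.45, 0.08 and -0.35 at 1.5 d, and -0.25, -0.69 and 0.59 at 3 d. The 502 other genes of at most 1000 exonic bases (with at least 5 CPM) had medians of -0.12, 0.67 and -0.18 in NW, -0.13, -0.26 and 0.34 at 16 h, 0.53, 0.02 and -0.39 at 1.5 d, and -0.26, -0.59 and 0.48 at 3 d. In every group, then, members and other short transcripts were highest in 1 and the same library. The part of transcript length or RNA quality in this was not tested. NW replicate 2 also had the highest keratinocyte share of the 12 libraries, 4.07% of counts, and the lowest fibroblast share in NW, 9.09%. The libraries highest in members also had the lowest fibroblast share of their group at 16 h (4.385%), 1.5 d (8.45%) and 3 d (12.26%). Their keratinocyte share was the highest of the group at 3 d (1.43%). It was not at 16 h (1.02%, against 1.45% in replicate 1) or 1.5 d (0.596%, against 0.779% in replicate 2). The part of cell make-up was not tested either. The median within-group SD on the log2 scale was 0.51 for the 75 members with at least 5 CPM, 0.53 for other short genes and 0.38 for 10160 other genes at that level.

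**Figure D1:**
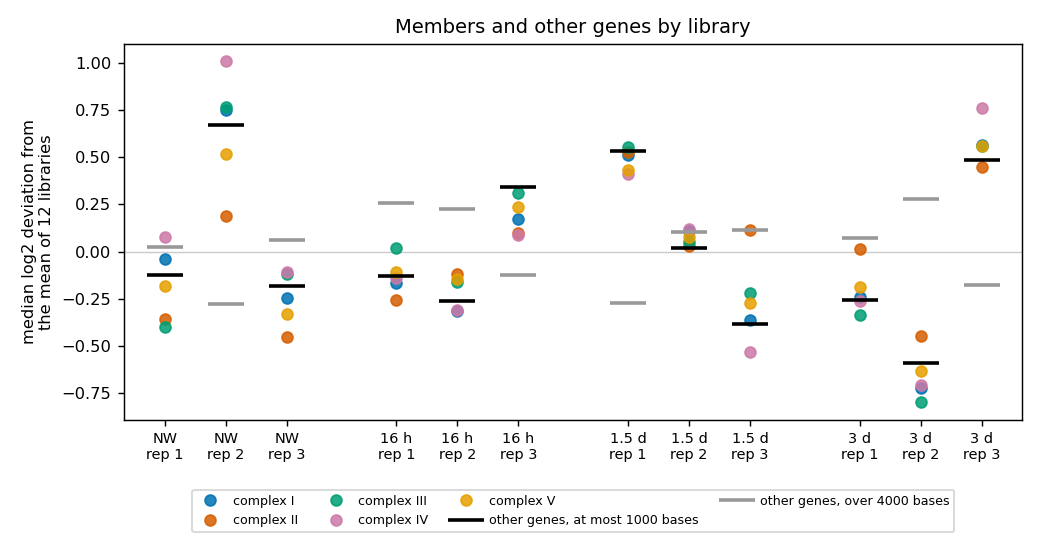
Median log2 deviation from the mean of the 12 libraries (y axis) for the tested members of each complex (coloured points) and for other genes with at least 5 CPM of at most 1000 bases (black bars) or over 4000 bases (grey bars), in each library of NW, 16 h, 1.5 d and 3 d (x axis). The members' median reaches 0.79 in NW replicate 2 and -0.69 in 3 d replicate 2, and most points lie on the same side of 0 as the black bar of their library, an exception being complex II in 1.5 d replicate 3 at 0.12.

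Per length, complex V had the highest median level and complex I the lowest. The levels below are RPKM, which scale counts by exon length and library size, averaged over the 12 libraries. The median member had 60.2 RPKM in complex I, 79.7 in complex II, 80.2 in complex III, 91.3 in complex IV and 110.0 in complex V. Atp5b, the catalytic beta subunit of the ATP synthase, was the highest member at 593 RPKM, followed in complex V by its partner Atp5a1 at 298 RPKM. Atp5g2, a gene of the membrane c ring, was the lowest there at 20.8 RPKM. In complex IV, Cox6a1 had 279 and Cox6c 249 RPKM. The lowest tested was Cox4i2, the isoform of subunit 4 known from lung, at 0.37 RPKM, while its widely expressed counterpart Cox4i1 had 245 RPKM. In complex III, the core subunit Uqcrc1 had 211 and Uqcrb 150 RPKM, and Uqcrq had 44.9 RPKM. In complex II, the iron-sulphur subunit Sdhb had 102, the flavoprotein Sdha 84.4, the anchor Sdhd 75.0 and the anchor Sdhc 59.6 RPKM. In complex I, Ndufa4 had 160 and Ndufb9 106 RPKM, and the pseudogene Ndufs5-ps was the lowest at 1.71 RPKM.

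**Figure D2:**
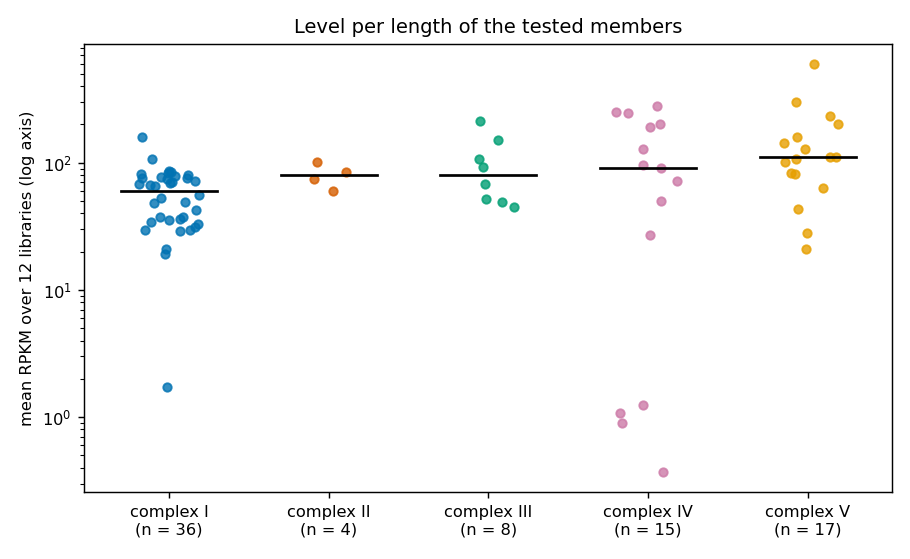
Mean level per length over 12 libraries (RPKM, log axis) of each tested member (points) by complex, with the median as a line. Medians are 60.2, 79.7, 80.2, 91.3 and 110.0 RPKM in complexes I to V, and 4 members of complex IV lie between 0.37 and 1.25 RPKM.

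Wounding was followed by few changes that passed the test, and these went both ways. At 16 h against NW, 3 of 80 members were called higher (Atp5a1, Ndufs1 and Sdha) and 4 lower (Cox8b, Ndufa1, Ndufa13 and Ndufv3) at an adjusted p under 0.05 (edgeR quasi-likelihood test, Benjamini-Hochberg over all 14901 genes). Of all genes 13.5% were called higher and 11.2% lower. At 1.5 d against NW, 4 members were called higher (Atp5a1, Ndufa10, Ndufv1 and Sdha) and 1 lower (Cox8b), beside 13.7% and 10.8% of all genes. At 3 d against NW, 2 members were called higher (Atp5a1 and Sdha), beside 12% of all genes. Called lower at 3 d were 0 members in edgeR, with 1 at an unadjusted p under 0.05, and 0 in DESeq2 and limma-voom, beside 9.15% of all genes. In all, 8.75%, 6.25% and 2.5% of the tested members were called at 16 h, 1.5 d and 3 d, against 24.7%, 24.5% and 21.1% of all genes. The F test for any difference among the 4 groups called 4 members (Sdha, Ndufv1, Cox8b and Atp5a1) or 5%, against 29.7% of all genes. The 3 comparisons share the NW libraries.

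Complex IV had the lowest median change at each time, but the size and often the sign of the complex medians moved with single libraries and with the keratinocyte covariate. The median log2 change of the tested members at 16 h, 1.5 d and 3 d against NW was -0.30, -0.02 and -0.21 in complex I, 0.04, 0.55 and 0.27 in complex II, and -0.15, -0.04 and -0.26 in complex III. It was -0.53, -0.40 and -0.38 in complex IV and -0.04, 0.10 and -0.12 in complex V. All genes had -0.04, 0.01 and 0.00. Complex IV also had the shortest median exon length, 569 bases, and complex II the longest, 1232, with 922, 948 and 729 in complexes I, III and V. The part of length in the order of the complexes was not tested. In complex IV 14 of 15 members had a negative change at 16 h and at 1.5 d, and 12 of 15 at 3 d. With Ndufa4 counted in complex IV, where its changes were positive at each time, the complex IV medians were -0.47, -0.37 and -0.29. Without NW replicate 2 the complex I medians were 0.06, 0.30 and 0.14, those of complex II 0.31, 0.78 and 0.50, and those of complex III 0.29, 0.49 and 0.18. Those of complex IV were then -0.17, 0.06 and 0.06, and those of complex V 0.23, 0.34 and 0.32. Without 3 d replicate 3, which stood high in the same way, the medians at 3 d were -0.65 in complex I, -0.02 in complex II, -0.76 in complex III, -0.86 in complex IV and -0.42 in complex V. Without 3 d replicate 2, the lowest of its group, they were 0.07, 0.51, -0.02, -0.08 and 0.13 in complexes I to V. Without 1.5 d replicate 1 the medians at 1.5 d were -0.36, 0.23, -0.23, -0.70 and -0.14 in complexes I to V, and without 1.5 d replicate 3 they were 0.15, 0.68, 0.16, -0.17 and 0.27. Without 16 h replicate 3 the medians at 16 h were -0.53 in complex I, -0.09 in complex II and -0.22 in complex V. NW replicate 3 mattered too: without it the medians were -0.47, -0.20 and -0.38 in complex I and -0.19, -0.12 and -0.23 in complex V at the 3 times. With the log2 keratinocyte share as a covariate, edgeR called 0 members at 16 h, 1.5 d and 3 d, with 5 higher and 3 lower, 3 higher and 1 lower, and 1 higher at an unadjusted p under 0.05. The share of all genes called was then 13.9%, 5.09% and 3.75%. The keratinocyte share was 1.99%, 4.07% and 3.33% in the NW libraries and at most 1.45% in any wound library. The covariate therefore overlaps the contrast against NW, and this fit cannot tell wounding from keratinocyte share. With that covariate the medians at 16 h, 1.5 d and 3 d were -0.05, 0.31 and 0.20 in complex I, 0.18, 0.69 and 0.35 in complex II, 0.18, 0.56 and 0.33 in complex III, -0.26, 0.11 and 0.25 in complex IV and 0.16, 0.36 and 0.37 in complex V, so that complex I and not complex IV was lowest at 3 d.

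**Figure D3:**
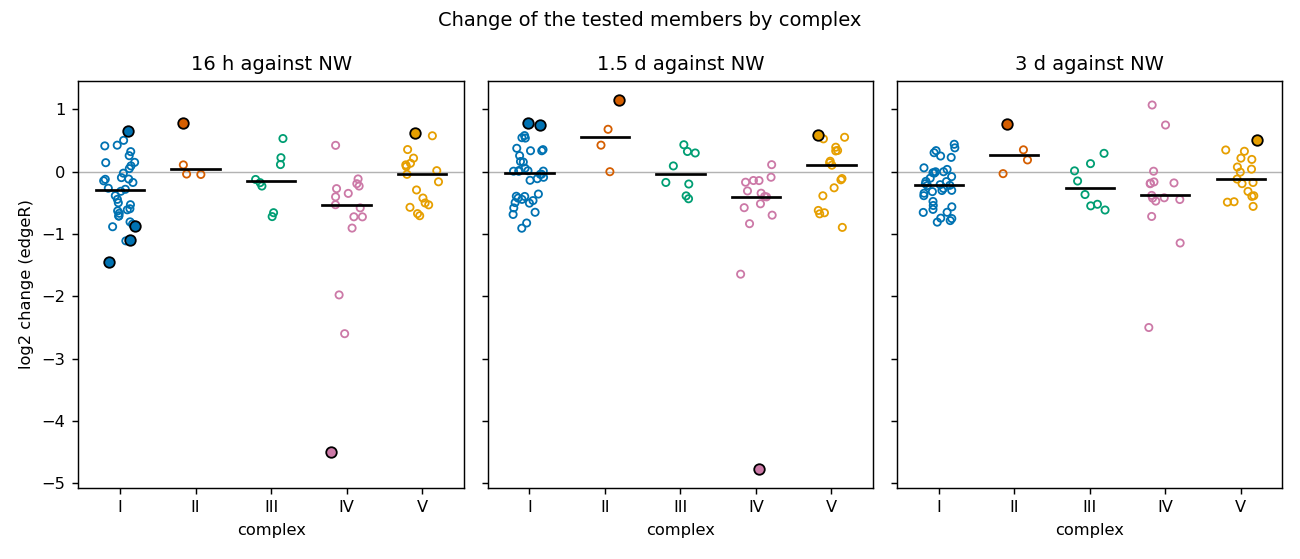
Log2 change of every tested member (points) by complex (x axis) at 16 h, 1.5 d and 3 d against NW, with filled points for members at an adjusted p under 0.05 and a line at the median. Complex IV medians are -0.53, -0.40 and -0.38, and Sdha stands highest in complex II at every time, with 0.78, 1.16 and 0.76.

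In complex I the higher calls fell on the subunits Ndufs1, Ndufv1 and Ndufa10, and the lower calls on Ndufa1, Ndufa13 and Ndufv3. Of the 7 nuclear-encoded core subunits, which carry the flavin and the iron-sulphur clusters, 1 was called higher at 16 h and 1 at 1.5 d, and the median log2 changes were 0.09, 0.54 and 0.00 at 16 h, 1.5 d and 3 d. Of 27 accessory subunits tested, 3 were called lower at 16 h and 1 higher at 1.5 d, with medians of -0.53, -0.14 and -0.30. Beside the 13.5% of all genes called higher and 11.2% called lower at 16 h, and 13.7% higher at 1.5 d, the counts of both classes are near or below these shares. The core genes had a median exon length of 1608 bases and the accessory genes 750.
Ndufv1, which binds the flavin that accepts electrons from NADH, had 76.3, 103 and 83.8 CPM (counts scaled by TMM to a common library size) in the NW libraries, 121, 120 and 132 CPM at 16 h, 158, 146 and 149 CPM at 1.5 d, and 114, 111 and 133 CPM at 3 d. Every wound library was above every NW library. Its log2 change was 0.78 at 1.5 d (SE 0.18, edgeR adjusted p = 0.00632), 0.50 at 16 h (SE 0.18, adjusted p = 0.0515) and 0.44 at 3 d (SE 0.18, adjusted p = 0.0921), so that only 1.5 d passed the threshold in edgeR, while DESeq2 called all 3 times and limma-voom 16 h and 1.5 d. That call held without any 1 library.
Ndufs1, the largest core subunit, with iron-sulphur clusters, had 80.6, 57.8 and 58.9 CPM in NW, 88.6, 121 and 102 CPM at 16 h, 89.1, 90.9 and 115 CPM at 1.5 d, and 87.7, 80.9 and 75.1 CPM at 3 d. The 16 h and 1.5 d libraries lay above NW, while the 3 d libraries overlapped it. It rose at 16 h by 0.66 on the log2 scale (SE 0.20, edgeR adjusted p = 0.0311), and had 0.58 at 1.5 d (adjusted p = 0.0533), which DESeq2 and limma-voom called. The call at 16 h was lost without NW replicate 2 or 3, or without 16 h replicate 2 or 3, with adjusted p between 0.0581 and 0.137.
Ndufa10, an accessory subunit, had 152, 96.3 and 103 CPM at 1.5 d and 59.9, 91.4 and 57.8 CPM in NW, without overlap. Its log2 change was 0.75 (SE 0.25, edgeR adjusted p = 0.0428), and the call was lost without NW replicate 1 or 3, 16 h replicate 1 or 2, or 1.5 d replicate 1 or 3, with adjusted p between 0.0505 and 0.161.
These 3 accessory subunits were lower at 16 h. Ndufa13, also known as GRIM-19, had 39.8, 35.0 and 51.4 CPM at 16 h and 79.2, 126 and 64.4 CPM in NW. Its groups did not overlap, and its log2 change was -1.09 (SE 0.31, edgeR adjusted p = 0.0221). At 1.5 d it had 85.6, 75.9 and 48.5 CPM and at 3 d 66.1, 61.7 and 108 CPM, both overlapping NW. Of its exon length, 29.6% overlaps Tssk6, and fragments there were not counted.
Ndufa1, a small membrane subunit needed for assembly of the complex, had 20.2, 16.1 and 27.9 CPM at 16 h and 43.3, 92.1 and 39.3 CPM in NW. All 16 h libraries were below NW, and the log2 change was -1.45 (SE 0.41, edgeR adjusted p = 0.0225). The calls for Ndufa13 and Ndufa1 were lost without NW replicate 2, 16 h replicate 1 or 16 h replicate 2, with adjusted p of 0.101, 0.069 and 0.0927 for Ndufa13 and 0.112, 0.068 and 0.0937 for Ndufa1.
Ndufv3, an accessory subunit of the NADH-oxidising module, had 28.1, 35.6 and 34.5 CPM at 16 h and 47.4, 76.7 and 56.5 CPM in NW. These groups did not overlap either, and the log2 change was -0.88 (SE 0.28, edgeR adjusted p = 0.037). The call was lost without any of 7 libraries in turn (NW replicate 2 or 3, any 16 h replicate, or 3 d replicate 1 or 2), with adjusted p between 0.0513 and 0.140. Ndufs4, an accessory subunit, was not called, with log2 changes of -0.15, 0.01 and -0.08 at 16 h, 1.5 d and 3 d. Ndufa4 had 0.05, 0.34 and 0.04.

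In complex II the flavoprotein Sdha rose at every time, while the other 3 subunits were not called. Sdha, which also oxidises succinate in the citric acid cycle, had 165, 124 and 146 CPM in NW, 236, 277 and 236 CPM at 16 h, 269, 272 and 431 CPM at 1.5 d, and 287, 223 and 229 CPM at 3 d. All 9 wound libraries were above all 3 NW libraries, and 1.5 d replicate 3 was the highest. The log2 change was 0.78 at 16 h (SE 0.22, edgeR adjusted p = 0.0213), 1.16 at 1.5 d (SE 0.22, adjusted p = 0.0027) and 0.76 at 3 d (SE 0.22, adjusted p = 0.0272). The rise at 1.5 d, 2.23-fold, held without any 1 library. At 16 h the call was lost without NW replicate 2 or 3 or 16 h replicate 2 (adjusted p between 0.0581 and 0.0851), and at 3 d without NW replicate 2 or 3 or 3 d replicate 1 (adjusted p between 0.0753 and 0.126). Sdha has no exon overlap and 0% of its 50-base sequences are shared with transcripts of another gene. Sdhb had 83.3, 89.7 and 116 CPM at 16 h, 180, 104 and 115 CPM at 1.5 d, and 111, 79.0 and 148 CPM at 3 d, overlapping the 90.4, 122 and 83.3 CPM of NW. Its log2 change of 0.43 at 1.5 d had an edgeR adjusted p of 0.289. For the membrane anchors, the log2 change at 16 h, 1.5 d and 3 d was 0.11, 0.68 and 0.35 in Sdhd and -0.04, 0.00 and -0.03 in Sdhc.

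In complex III edgeR called 0 of 8 subunits at any time against NW, with 0 at an unadjusted p under 0.05 and 0 called by DESeq2 or limma-voom. Uqcrc2, a core subunit, had 98.8, 113 and 128 CPM at 16 h and 50.01, 96.5 and 88.0 CPM in NW. The groups did not overlap, and the log2 change of 0.53 had an edgeR adjusted p of 0.138. The other core subunit, Uqcrc1, had log2 changes of 0.11, 0.30 and 0.01 at 16 h, 1.5 d and 3 d. Uqcrfs1, the Rieske iron-sulphur protein, had -0.12, 0.09 and -0.37, the small subunit Uqcrq 0.22, 0.32 and 0.13, and Uqcrb -0.18, -0.43 and -0.55. Uqcr11, the shortest tested member of the complex at 436 exonic bases, had 22.1, 19.1 and 74.8 CPM at 3 d and 32.3, 105 and 40.2 CPM in NW. Replicate 3 at 3 d and NW replicate 2 were far above their group in this gene, as in most members.

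Complex IV held the largest fall of any member, in an isoform that was low throughout. Cox8b, the isoform of subunit 8 known from heart, skeletal muscle and brown fat, had 53, 37 and 16 counts in the NW libraries, 1, 4 and 0 at 16 h, 1, 1 and 3 at 1.5 d, and 8, 1 and 8 at 3 d. In CPM it had 0.0334, 0.120 and 0 at 16 h and 0.0333, 0.0246 and 0.0664 at 1.5 d, against 2.02, 1.22 and 0.531 in NW. All wound libraries were below NW. The log2 change was -4.49 at 16 h (SE 1.46, edgeR adjusted p = 0.0386), -4.78 at 1.5 d (SE 1.47, adjusted p = 0.0312) and -2.50 at 3 d (SE 1.32, adjusted p = 0.201). Its counts are few, and 10 of the 12 leave-one-out fits lost the call at 16 h (kept without 1.5 d replicate 3 or 3 d replicate 2), with adjusted p up to 0.119. At 1.5 d it was lost without NW replicate 1 or 2, any 1.5 d replicate or 3 d replicate 1, with adjusted p up to 0.105. A list of 12 adipocyte markers summed to 2.13 to 3.27 CPM at 16 h, 2.74 to 5.02 CPM at 1.5 d and 2.84 to 10.6 CPM at 3 d, against 51.3 to 129.5 CPM in NW. Of the 8 adipocyte markers tested, 6, 5 and 4 were called lower at the 3 times. The defining markers Adipoq, Cidea, Ucp1 and Retn had 0 counts in all 16 h libraries, and Cidea and Lep in all NW libraries. A list of 15 skeletal muscle markers summed to 9.21 to 15.1 CPM at 16 h, 16.7 to 23.6 CPM at 1.5 d and 13.5 to 17.1 CPM at 3 d, against 7.78 to 38.1 CPM in NW. The part of such cells in the fall of Cox8b was not tested.
The other isoforms known mainly from muscle, testis or lung were also near the limit of counting. Cox6b2, the testis isoform, had 0.267, 0.211 and 0.302 CPM at 16 h and 1.45, 2.20 and 1.13 CPM in NW, with a log2 change of -2.60 (SE 0.98, edgeR adjusted p = 0.0689). The groups did not overlap, and DESeq2 and limma-voom called it lower. Cox7a1, the muscle isoform, had log2 changes of -0.12, -0.40 and 0.75 at 16 h, 1.5 d and 3 d, with an SE of 1.54 at each. Cox4i2 had -1.98, -0.58 and 1.07, and Cox6a2 had between 0 and 5 counts in a library.
Of the 11 widely expressed subunits of complex IV edgeR called 0 at each time, with 1 at an unadjusted p under 0.05 (at 16 h), DESeq2 called 1 at 16 h (Cox7a2l) and limma-voom 0, and 10 of 11 had a negative log2 change at each time, with medians of -0.40, -0.31 and -0.38. Cox4i1, the subunit 4 isoform of most tissues, had 142, 110 and 179 CPM at 16 h and 189, 362 and 161 CPM in NW, overlapping, with a log2 change of -0.72 (edgeR adjusted p = 0.236). Cox6a1 had 128, 110 and 130 CPM at 16 h, below the 148, 266 and 135 CPM of NW, with a log2 change of -0.58 (adjusted p = 0.186). Cox7a2l, which takes part in supercomplexes with complex III, had a log2 change of -0.90 at 16 h (SE 0.36, adjusted p = 0.0827). Cox5a, a subunit on the matrix side, was the only one of the 11 with positive values at each time, 0.42, 0.11 and 0.01. Cox6b1, Cox7a2 and Cox8a had -0.27, -0.40 and -0.53 at 16 h.

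In complex V the alpha subunit Atp5a1 rose at every time, and edgeR called none of the other 16 members. Atp5a1, which forms the catalytic head with Atp5b, had 493, 527 and 567 CPM in NW, 786, 876 and 774 CPM at 16 h, 808, 791 and 795 CPM at 1.5 d, and 797, 673 and 799 CPM at 3 d. Wound libraries all lay above NW, and the 3 libraries at 1.5 d were close to each other. Its log2 change was 0.62 at 16 h (SE 0.17, edgeR adjusted p = 0.0192), 0.59 at 1.5 d (SE 0.17, adjusted p = 0.0233) and 0.52 at 3 d (SE 0.17, adjusted p = 0.0478). At 16 h the call was lost without 16 h replicate 2 alone (adjusted p = 0.0863), and at 1.5 d without NW replicate 1 or 2 or 1.5 d replicate 3 (adjusted p between 0.0545 and 0.0603). At 3 d it was kept only without 1.5 d replicate 1 or 3 d replicate 2, and reached an adjusted p of 0.155 without 3 d replicate 1.
Atp5b had 1241, 1288 and 1285 CPM at 16 h and 1547, 1106 and 1098 CPM at 1.5 d, both above the 779, 976 and 803 CPM of NW. Its log2 changes of 0.58 and 0.55 had edgeR adjusted p of 0.0666 and 0.078. DESeq2 called both, and limma-voom the one at 16 h. The 5 genes of the catalytic head had median log2 changes of 0.11, 0.17 and -0.12 at 16 h, 1.5 d and 3 d, and the 12 of the stalk and membrane part -0.23, -0.12 and -0.09. The c ring genes Atp5g1, Atp5g2 and Atp5g3 code for 1 mature protein, and had 0.36, 0.14 and 0.08 at 16 h. Atp5c1, the rotating gamma subunit, had -0.04, 0.17 and -0.12. The small membrane subunits Atp5k and Atp5j2, of 320 and 477 exonic bases, had -0.57 and -0.71 at 16 h, with NW libraries at 15.4, 47.0 and 17.9 CPM for Atp5k.

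**Figure D4:**
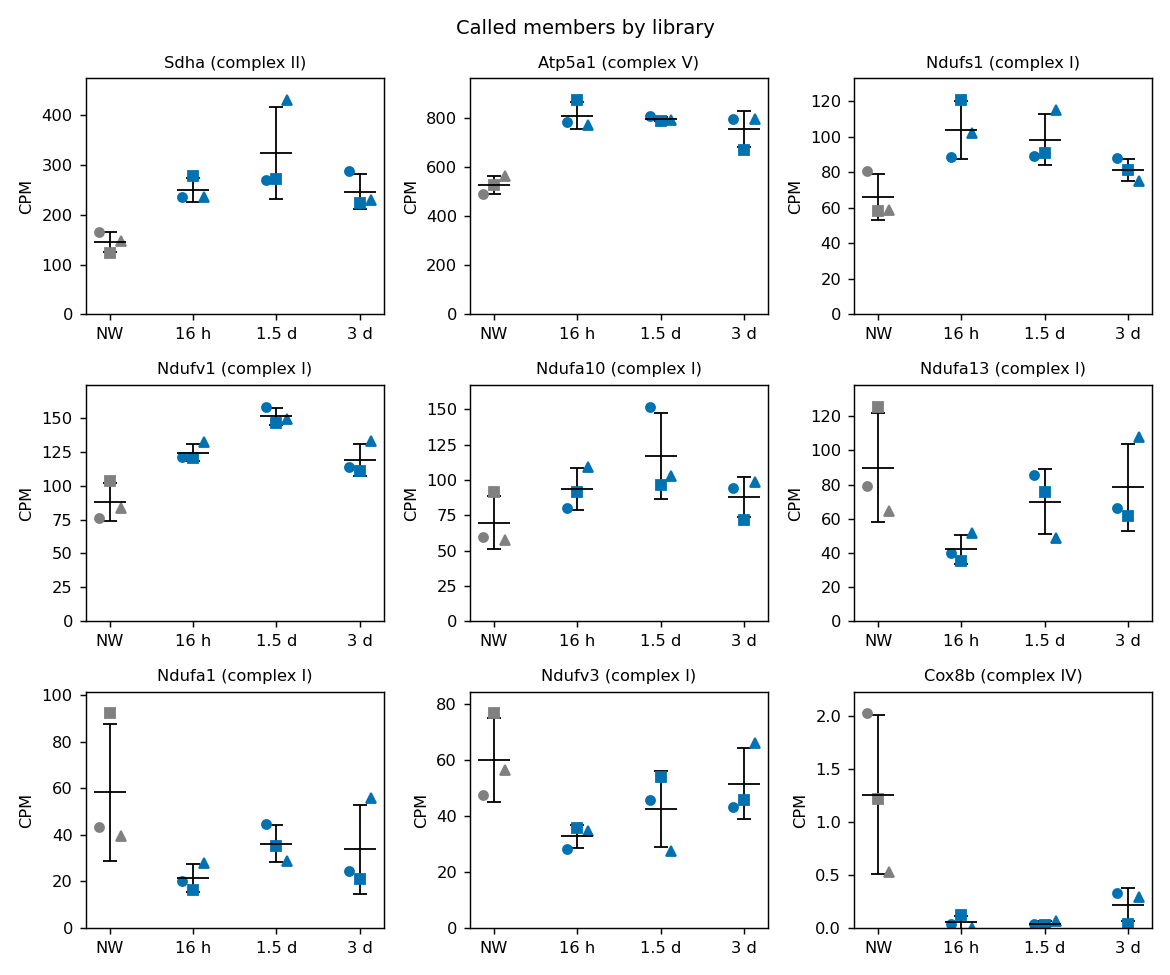
TMM-normalised CPM (y axis, from 0) of the 9 members called against NW, in each library (circle, square and triangle for replicates 1, 2 and 3; grey for NW, blue for wounds), with the mean as a bar and the SD as whiskers, at NW, 16 h, 1.5 d and 3 d. Sdha lies between 223 and 431 CPM in wounds and at most 165 in NW, and NW replicate 2 is the highest NW library in Ndufa13, Ndufa1 and Ndufv3.

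Between wound times edgeR called 0 members. For 1.5 d against 16 h, 1 member had an unadjusted p under 0.05, in the higher direction, and DESeq2 and limma-voom called 0. Of all genes 2.39% were called higher and 0.47% lower. For 3 d against 1.5 d, 0 members had an unadjusted p under 0.05 and neither other tool called any, beside 0.101% of all genes higher and 0.0403% lower. For 3 d against 16 h, 3 members had an unadjusted p under 0.05, all higher, beside 5.86% of all genes called higher and 3.67% lower. These were Ndufa13 with a log2 change of 0.90 (SE 0.31, edgeR adjusted p = 0.0891), Ndufv3 with 0.66 (adjusted p = 0.168) and Cox4i2 with 3.05 (adjusted p = 0.202). Of these DESeq2 called Ndufa13, and limma-voom called 0.

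Across members, the change against NW went with the exon length of the gene, which need not be the length of the expressed transcript. Among the 75 members with at least 5 CPM, the log2 change and the log of exon length had a Pearson r of 0.53 at 16 h, 0.67 at 1.5 d and 0.56 at 3 d. Among 10160 other genes it was 0.09, 0.02 and 0.09. These are correlations across genes of the same 12 libraries, so the points are not independent. The other genes also span a wider range of lengths, with 8815 of them over 1500 bases against 16 of the members. The r values of the 2 sets are therefore not like for like. The 16 members over 1500 bases had median log2 changes of 0.22, 0.48 and 0.16, against 0.10, 0.10 and 0.07 for 8815 other genes of that length. The 35 members of at most 750 bases had -0.50, -0.31 and -0.39, against -0.13, -0.21 and -0.25 for 212 other genes. Sdha, Atp5a1 and Ndufs1 are among the longest members, with 2859, 2431 and 2927 exonic bases, and Ndufa1 and Cox8b are short, with 493 and 363. Ndufa13 and Ndufv3, with 1268 and 1579 bases, are not.
In a fit with each library's contrast between short and long transcripts as a covariate, chosen after seeing the data, more members were called: 13 higher and 8 lower at 16 h, 16 higher and 2 lower at 1.5 d, and 9 higher at 3 d, while 31.8%, 32.7% and 26.4% of all genes were called. Sdha, Atp5a1 and Ndufv1 were higher at all 3 times in that fit. The covariate was drawn from the same counts, and its short part ran close to the members' own library medians. It therefore also takes up the members' own spread, and the fit cannot show the part of length. Complex IV had medians below 0 in it, at -0.23, -0.25 and -0.09, while those of complexes I and V lay between 0.00 and 0.18. Complex II had 0.25, 0.60 and 0.45, and complex III had 0.19, 0.14 and -0.02. Leaving out the 4 libraries that stood highest in short transcripts, also chosen after seeing the data, left 3 higher and 2 lower at 16 h, 3 higher and 0 lower at 1.5 d, and 0 higher and 2 lower at 3 d. At 16 h these were Atp5a1, Atp5b and Ndufv1 higher and Ndufa1 and Ndufa13 lower. At 1.5 d they were Ndufa10, Ndufv1 and Sdha higher, and at 3 d Ndufa1 and Uqcr11 lower. Sdha was thus not called at 16 h or 3 d in that fit, nor Atp5a1 at 1.5 d or 3 d. Of all genes it called 21.2%, 18.5% and 16.9% at 16 h, 1.5 d and 3 d. Every group had fewer libraries in it, so a lost call cannot be told from lost power.

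**Figure D5:**
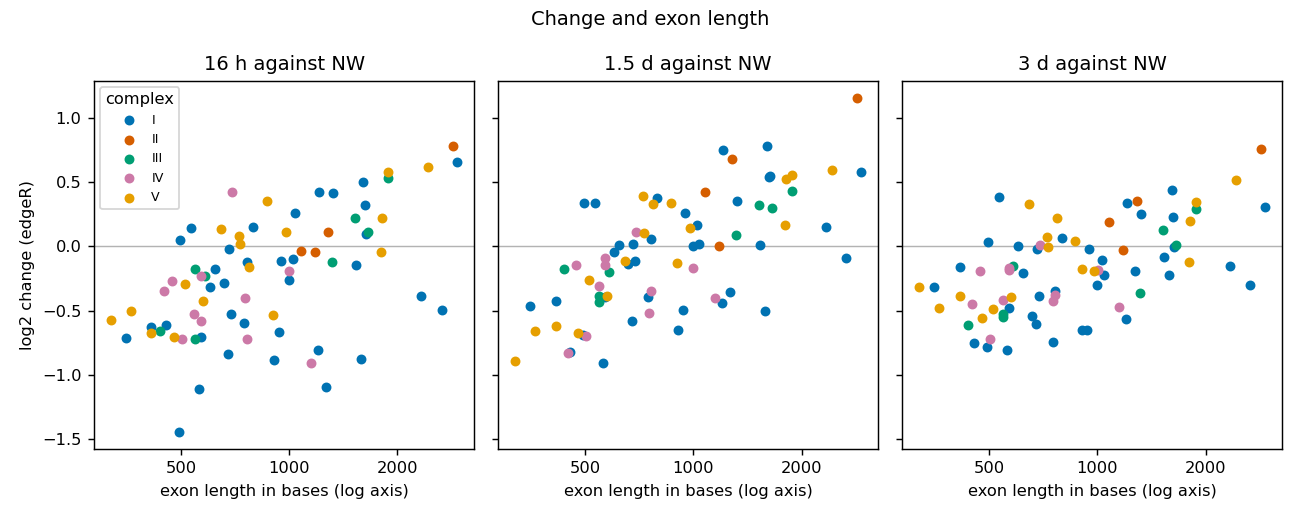
Log2 change against NW (y axis) and exon length in bases (x axis, log scale) of the 75 members with at least 5 CPM, coloured by complex, at 16 h, 1.5 d and 3 d. Points rise with length, with Pearson r of 0.53, 0.67 and 0.56.

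Lists of genes that work around the complexes can be read against all genes tested, of which 13.5%, 13.7% and 12% were called higher at 16 h, 1.5 d and 3 d and 11.2%, 10.8% and 9.15% lower. Of 20 genes for cristae and protein import, 9 were called higher at 16 h, 6 at 1.5 d and 4 at 3 d. Among them, the mitochondrial chaperone Hspd1 (HSP60) had 431 ± 67.5 CPM at 16 h, 253 ± 16.2 CPM at 1.5 d and 197 ± 44.8 CPM at 3 d, against 90.8 ± 11.4 CPM in NW (SD, n = 3 each), with edgeR adjusted p of 3.14e-05, 0.00046 and 0.00268. Hspa9, the import motor (mortalin), rose 3.62-fold at 16 h and 1.70-fold at 3 d, and the import receptor Tomm70a 3.06-fold and 1.65-fold. All 3 were lower at 3 d than at 16 h by edgeR.
Among 16 assembly factors of complex I, 2 were called higher at 16 h (Ndufaf4 and Foxred1), 1 at 1.5 d and 1 at 3 d (Foxred1), and among 34 of the other complexes 4, 5 and 2. These counts are near or below the shares of all genes. Lrpprc, which stabilises mitochondrial mRNAs, rose 3.62-fold at 16 h, 1.85-fold at 1.5 d and 1.90-fold at 3 d, with edgeR adjusted p of 0.000433, 0.0255 and 0.0239. Cox18, an insertase for complex IV, rose 1.78-fold, 2.32-fold and 2.11-fold, and Bcs1l, which inserts the Rieske protein, 2.02-fold at 16 h and 2.01-fold at 1.5 d.
Of 13 genes of coenzyme Q synthesis, 3 were called higher and 2 lower at 16 h, 4 and 2 at 1.5 d, and 2 and 2 at 3 d. Coq8b had 49.2 ± 0.645 CPM at 16 h, 77.8 ± 8.55 CPM at 1.5 d and 67.6 ± 7.06 CPM at 3 d, against 29.3 ± 0.666 CPM in NW, with edgeR adjusted p of 0.00827, 0.000193 and 0.000572. Coq4 rose as well, 2.57-fold, 4.09-fold and 2.19-fold, and Coq10a fell at each time, with log2 changes of -1.36, -1.21 and -1.08.
Of 20 tested regulators of mitochondrial biogenesis, 4 were called higher at 16 h (Polg, Tfb2m, Pprc1 and Polrmt) and 1 at 1.5 d (Polrmt), the second count lying below the 13.7% of all genes. Polrmt, the mitochondrial RNA polymerase, rose 2.38-fold at 16 h and 2.02-fold at 1.5 d, and Pprc1, a coactivator related to PGC-1alpha, 2.26-fold at 16 h.
Of 10 tested carriers, 1 was called higher and 2 lower at 16 h and at 1.5 d, and 2 lower at 3 d. Ucp2, an uncoupling protein homologue, had 68.9 ± 19.0 CPM at 16 h, 74.2 ± 8.89 CPM at 1.5 d and 104 ± 72.6 CPM at 3 d, against 306 ± 58.7 CPM in NW, with edgeR adjusted p of 0.00956, 0.0121 and 0.046. Vdac3, an outer membrane channel, rose 1.73-fold at 16 h and 1.78-fold at 1.5 d. Slc25a25, an ATP-Mg/phosphate carrier, had log2 changes of -0.88 (adjusted p = 0.0517), -1.53 (adjusted p = 0.00374) and -1.59 (adjusted p = 0.00342) in edgeR.
Of 11 tested electron carriers and related subunits, 1 was called higher and 2 lower at 16 h, and 1 lower at 1.5 d. Ndufa4l2, a relative of Ndufa4 known as a hypoxia-induced gene, had 16.3 ± 4.89 CPM at 16 h, 34.1 ± 16.0 CPM at 1.5 d and 117 ± 29.4 CPM at 3 d, against 234 ± 47.4 CPM in NW, with edgeR adjusted p of 3.44e-05, 0.000257 and 0.0527. At 3 d it was 7.17-fold higher than at 16 h (adjusted p = 0.000487). A list of 9 pericyte and smooth muscle markers moved in the same order, with a sum of 18.9 to 35.6 CPM at 16 h, 21.5 to 38.2 CPM at 1.5 d and 53.1 to 90.8 CPM at 3 d, against 55.9 to 102 CPM in NW. Of its 8 tested markers 4 were called lower at 16 h and 2 at 1.5 d, and Myh11 and Higd1b had 0 counts in all 16 h libraries. This order was not particular to that list. Endothelial markers had mean shares of 0.00127%, 0.00313%, 0.00319% and 0.00906% of counts at 16 h, 1.5 d, 3 d and in NW. Adipocyte markers had 0.000252%, 0.000412%, 0.000595% and 0.00941%. The other marker lists had another order. The part of any of these cells in the values of Ndufa4l2 was not tested. Atpif1, the inhibitor of the ATP synthase, was lower at 16 h, at 46.3 ± 6.88 CPM against 153 ± 90.9 CPM in NW (log2 change -1.72, adjusted p = 0.0112). Dhodh, which feeds electrons to ubiquinone from pyrimidine synthesis, had 31.4 ± 11.9 CPM at 16 h against 13.8 ± 2.31 CPM in NW (adjusted p = 0.00943).

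Subunit genes are known to have many processed copies in the genome. Of the 77 tested members matched to reference transcripts, 34 shared 0% of their 50-base sequences with transcripts of other genes, 22 shared over 10%, and Atp5l alone over 50%, at 84.8%. Uqcrb shared 43.4%. Exons of 11 tested members overlap another gene, among them 29.6% of Ndufa13, 12.1% of Uqcrc2 (with Pdzd9), 8.47% of Ndufs1 (with Ino80dos) and 4.85% of Atp5a1 (with Haus1). Levels of these members are uncertain to that extent, and the counting used no strand.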

How the data were processed

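RNA of 12 libraries was deposited by the authors as whole-number counts of fragments per gene. Per the file headers, they were made with featureCounts 2.0.0 over exons of an mm10 annotation, counting read pairs with no strand, multi-mapping or overlap option, so fragments that fit several places or genes were not counted. STAR, SAMtools, Subread and Partek are named in the submitters' processing notes. Columns without a sample numbered 0. From the counts, filterByExpr left 14901 genes, which were scaled by TMM and fitted by group over all 12 libraries with edgeR 4.0.16 (R 4.3.3, robust quasi-likelihood). Benjamini-Hochberg adjustment of the 6 pairwise comparisons and the F test ran across the 14901 genes, with a threshold of 0.05. The SE was back-calculated from the change and its F. RPKM used the deposited exon lengths, and log2 CPM a prior count of 2. The fits were tested on simulated data.

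The members, gene lists and tests were chosen with earlier results of these data known. Named members are a panel of 32 genes, every member called, and in each complex the 3 with the smallest F test p and the highest and lowest per length. In the other lists up to 3 genes with the smallest F test p were named, beside genes of counts of 5 or fewer. Uqcr11, Cox6c, Ndufb9 and other members named outside this rule were chosen after their values were seen. The values of 1 panel gene are not reported here. Replicate numbers did not pair the libraries: same-numbered libraries had r between -0.17 and 0.17 and other numbers between -0.20 and 0.20. Alternatives were other scalings, filters and tools (DESeq2 1.42.0, limma 3.58.1), 2-group fits, a replicate block, 2 covariates and leaving out libraries. Promoter and transcript sequences were RefSeq and reference tables of GRCm38, and 68 of 87 members matched a promoter. Depth per library was 26389453 to 43493475 counts, where 3 counts stand for 0.069 to 0.114 CPM.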

Additional observations from a re-analysis of the deposited data

How the results depend on the processing

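The count of members called against NW, 3 higher and 4 lower at 16 h, 4 and 1 at 1.5 d and 2 and 0 at 3 d with 4 in the F test, moved most with the covariates and the left-out libraries, and none of the 14 single calls changed sign under any alternative tried. DESeq2 gave 5 higher and 8 lower at 16 h, 8 in the F test and 1 higher for 3 d against 16 h, and limma-voom gave 5 higher at 16 h. Of all genes, DESeq2 called 30.1% and limma-voom 26.8% at 16 h, and DESeq2 called 15.8% for 3 d against 16 h. Total-count scaling gave 0 higher at 3 d and 2 in the F test, and moved the median of all genes at 3 d against NW to -0.11 and at 3 d against 16 h to -0.19. With no count filter there were 0 lower at 1.5 d, 1 higher at 3 d and 2 in the F test. The CPM filter left 0 lower at 1.5 d because it removed Cox8b, the 1 member called lower there, before the test. Fits of 2 groups gave 2 higher at 1.5 d and 1 at 3 d. With the replicate block, 2 were lower at 16 h, 0 lower at 1.5 d, 1 higher at 3 d and 1 passed the F test. Of the 12 libraries 3 correlated best with their own number, where 18 pairs of libraries shared a number and 36 did not. The numbers thus gave no sign of a pairing. The keratinocyte covariate left 0 calls in each of these counts and turned the medians of complex III to 0.56 at 1.5 d and 0.33 at 3 d, of complex IV to 0.25 and of complex V to 0.37 at 3 d. Every NW library had a higher keratinocyte share than every wound library, so this fit cannot tell wounding from that share. The short-transcript covariate, chosen after seeing the data, gave 13 higher and 8 lower at 16 h, 16 and 2 at 1.5 d, 9 higher at 3 d, 1 higher for 1.5 d against 16 h, 2 higher and 2 lower for 3 d against 16 h, and 18 in the F test. Without the 4 libraries highest in short transcripts, also chosen afterwards, 2 were lower at 16 h, 0 lower at 1.5 d, and 0 higher and 2 lower at 3 d. Leaving out 1 library in turn gave 0 to 5 higher and 0 to 4 lower at 16 h, 2 to 4 and 0 to 1 at 1.5 d, 0 to 2 and 0 to 4 at 3 d, and 1 to 4 in the F test. It gave medians of -0.24 to 0.49 in complex III and 0.23 to 0.78 in complex II at 1.5 d, and -0.42 to 0.32 in complex V at 3 d. The 4 lower at 3 d came without 3 d replicate 3, where 17.5% of all genes were called. Over the leave-one-out fits, 14.5% to 24.3% of all genes were called at 16 h, 15.5% to 24.5% at 1.5 d and 11.8% to 21.1% at 3 d. Of 351 recomputed complex medians 7 moved by more than the spread between libraries. That spread was a within-group SD of 0.32 to 0.55 by complex, so a median could change sign and not count as moved. An example is complex I at 16 h, at -0.30, and at 0.06 without NW replicate 2. Many refits also left out a library of neither compared group. The count of 7 is therefore no measure of stability. The cause of the shifts was not tested. At this depth members under 1 CPM, such as Cox8b, rest on few counts, and 3 libraries a group limit the precision of all others.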
